A study of Mus musculus with 8 samples.

Results

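The genes described here encode the 3 transforming growth factor-β (TGF-β) ligands (Tgfb1, Tgfb2, Tgfb3), the TGF-β type I and type II receptors (Tgfbr1, Tgfbr2), the 4 latent TGF-β binding proteins (Ltbp1 to Ltbp4) and the inhibitory Smad protein Smad7. They were chosen by gene symbol, so that 10 of the 54532 genes of the count table were members, and all 10 were among the 15564 genes that passed the filter on low counts. Bulk RNA-seq was performed on lung endothelial cells (ECs) of wild-type (WT) C57BL/6J mouse pups. The normoxia group stayed in room air (21% O2) and the hyperoxia group was kept at 80% O2, both from birth (P0) until the lungs were taken at P14, with nursing dams exchanged between the groups. Hyperoxia of this kind serves as a mouse model of bronchopulmonary dysplasia (BPD), a lung disease of preterm infants. Each group held 4 libraries of CD31-bead-bound cells from lung suspensions first depleted of CD45-positive leukocytes, and the model is therefore an EC-enriched isolate rather than a pure cell type. The sources do not say how many pups made up a library, so p-values measure the spread between these libraries.

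TGF-β ligands are secreted in a latent form, in which the mature growth factor is held by its own propeptide. In most cells the propeptide is bound to an LTBP, which anchors the complex to fibrillin and fibronectin fibers until integrins or proteases release the ligand. The free ligand brings the type II and type I receptors together, the type I receptor phosphorylates Smad2 and Smad3, and Smad7 blocks that step and is itself a target gene of the pathway. In the growing lung the pathway takes part in the formation of alveolar septa and elastic fibers, and in ECs it acts beside a second type I receptor, ALK1 (Acvrl1).

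Library totals lay between 16098086 and 18300730 counts. Pan-endothelial markers summed to between 21410 and 23239 CPM (counts scaled to a common library size) in all 8 libraries, with 5 of 16 higher in hyperoxia and 4 lower, and Cdh5 (VE-cadherin) lay between 3874 and 4355 CPM. Hyperoxia 3 differed from the rest of its group, with a summed AT2 epithelial marker level of 907 CPM against 2352 to 2728 CPM and a summed mural and myofibroblast marker level of 113 CPM against 145 to 206 CPM. Normoxia 1 had the highest summed mural level of its group, 94.8 CPM against 53.1 to 62.4 CPM. In 5 of the 8 libraries both Xist and Y-linked genes had over 100 counts, so these libraries held RNA of both sexes. In bulk libraries fewer cells of a type and less RNA per cell cannot be told apart.

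Of the 10 genes, 6 (60%) passed an adjusted p of 0.05, compared with 35.6% of all genes tested. The genes were chosen with earlier results of these data known, so setting these shares side by side is not a test. Tgfb2, Tgfb3, Tgfbr2 and Ltbp2 were higher in hyperoxia, a direction called for 18.5% of all genes. Ltbp1 and Smad7 were lower, as were 17.1% of all genes. Only 3 of the 10, Tgfb2, Tgfb3 and Ltbp2, also changed by at least 1 on the log2 scale, compared with 6.98% of all genes. The groups did not overlap in CPM for 5 of the 10 genes (Tgfb2, Tgfb3, Tgfbr2, Ltbp1 and Smad7), and the same held for 35.4% of all genes. The median log2 fold change was 0.14 over the 10 genes and -0.0040 over all genes tested.

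**Figure D1:**
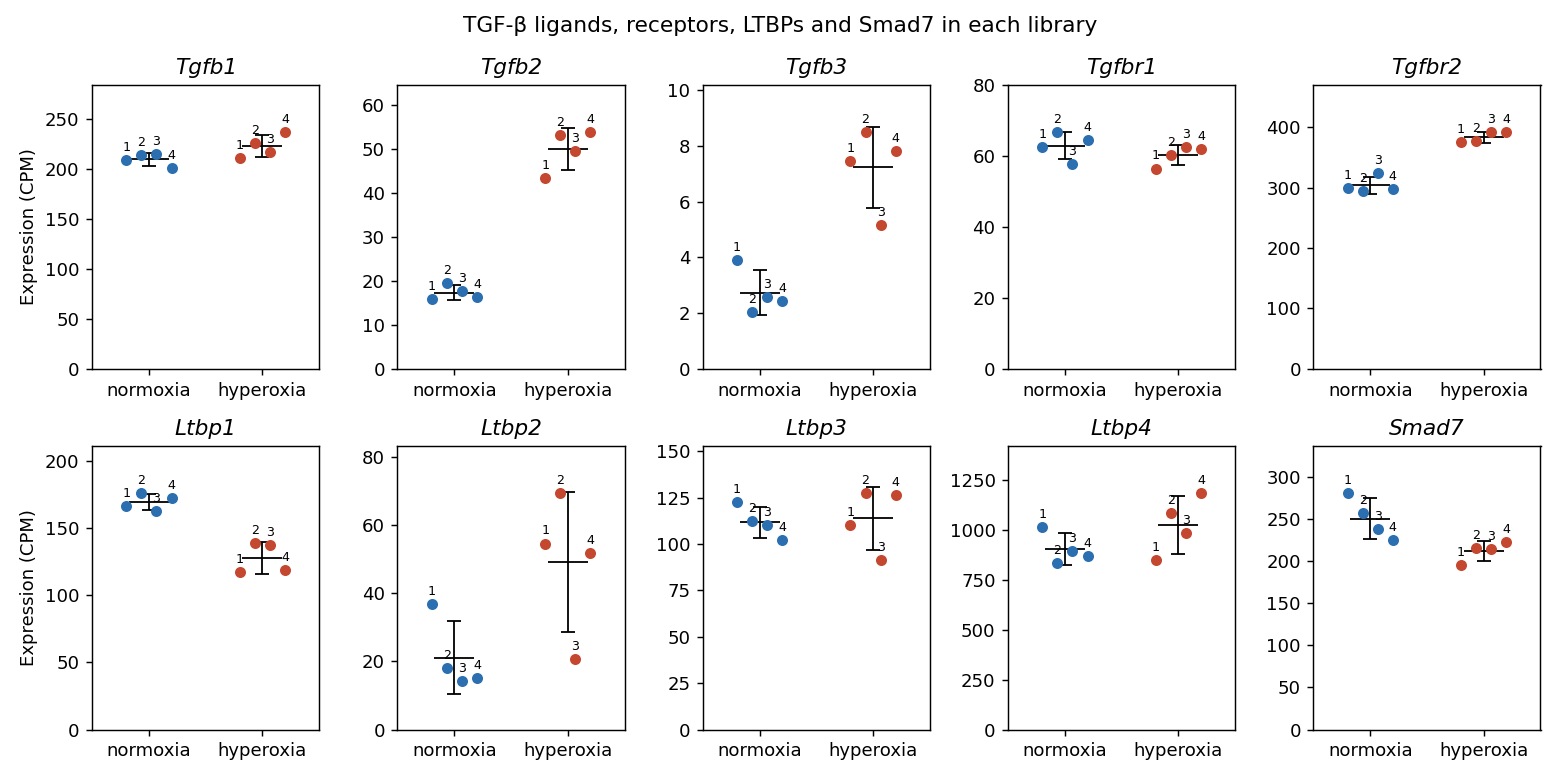
Expression in CPM (y axis, from 0) of the 10 genes in each library, with normoxia in blue and hyperoxia in red. Numbers give the replicate, horizontal bars the group mean and error bars the SD (n = 4 each). Tgfb2 lies between 15.8 and 19.5 CPM in normoxia and between 43.5 and 53.8 CPM in hyperoxia, whereas Ltbp2 overlaps between the groups through normoxia 1 and hyperoxia 3.

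Upstream sequences are shown for 3 genes whose groups did not overlap, the ligand gene Tgfb2, the receptor gene Tgfbr2 and the latency gene Ltbp1, as context for differences in transcript level. They are the 250 bases before the RefSeq start in build GRCm38.p6, given in the direction of transcription. Capitals mark matches on either strand to 6 sets of letters: the cAMP response element TGACGTCA, the E-box CACGTG, the GC box GGGCGG, the Smad-binding letters CAGAC, the AP-1 letters TGANTCA and the CCAAT box. Matches to GGGCGG and TGANTCA were searched for and not found in these 3 windows, and no marked matches overlap here.
Tgfb2, chr1:186705990-186706239, minus strand: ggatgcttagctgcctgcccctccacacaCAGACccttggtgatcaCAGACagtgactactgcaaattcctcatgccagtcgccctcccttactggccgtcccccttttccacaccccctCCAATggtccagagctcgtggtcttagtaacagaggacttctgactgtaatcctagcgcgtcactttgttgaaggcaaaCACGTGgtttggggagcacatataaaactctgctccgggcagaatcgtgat
Tgfbr2, chr9:116175364-116175613, minus strand: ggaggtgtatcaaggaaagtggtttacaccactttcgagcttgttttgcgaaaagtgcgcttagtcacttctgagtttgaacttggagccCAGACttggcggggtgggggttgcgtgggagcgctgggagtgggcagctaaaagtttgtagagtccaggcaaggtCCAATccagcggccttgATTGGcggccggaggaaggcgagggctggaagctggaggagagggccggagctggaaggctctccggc
Ltbp1, first of 2 RefSeq starts, chr17:75005279-75005528, plus strand: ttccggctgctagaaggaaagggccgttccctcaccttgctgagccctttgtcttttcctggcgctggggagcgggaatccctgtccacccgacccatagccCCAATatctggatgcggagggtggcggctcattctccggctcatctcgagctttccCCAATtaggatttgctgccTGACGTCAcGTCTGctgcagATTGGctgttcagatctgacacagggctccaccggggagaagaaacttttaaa

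The Tgfb2 window held 2 CAGAC matches, 1 CACGTG and 1 CCAAT, and the Tgfbr2 window held 1 CAGAC and 2 CCAAT. The Ltbp1 window held 1 TGACGTCA, 1 CAGAC and 3 CCAAT. Among 32851 mouse promoter windows of the same length, 42.2% held CAGAC, 33.8% CCAAT, 32.7% GGGCGG, 6.75% TGANTCA, 6.02% CACGTG and 1.55% TGACGTCA. A match describes the letters of the window and not a bound site.

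Tgfb2 encodes the ligand isoform that depends most on the co-receptor betaglycan for binding to the type II receptor, and it lies at chr1:186622792-186705989 on the minus strand of mm10. Normoxia libraries held 15.8, 19.5, 17.8 and 16.2 CPM of Tgfb2, and hyperoxia libraries held 43.5, 53.2, 49.6 and 53.8 CPM. Every hyperoxia library was above every normoxia library, with a wide gap between the groups. Tgfb2 rose from 17.3 ± 1.69 to 50.02 ± 4.76 CPM (SD, n = 4 per group), a 2.88-fold difference with a 95% confidence interval of 2.52 to 3.30. Its log2 fold change was 1.53 (SE 0.0889), and the edgeR quasi-likelihood test gave an adjusted p of 9.18e-07. Without hyperoxia 3 the log2 fold change was 1.53 (adjusted p = 2.64e-06).

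Tgfb3, a ligand gene known for its part in palate closure and lung development, lies at chr12:86056745-86079041 on the minus strand. It had few counts, between 36 and 64 per normoxia library and between 90 and 150 per hyperoxia library. The normoxia values were 3.92, 2.05, 2.57 and 2.43 CPM, and the hyperoxia values were 7.48, 8.50, 5.15 and 7.82 CPM. The groups did not overlap, and normoxia 1 and hyperoxia 3 were the values nearest to each other. Tgfb3 rose from 2.74 ± 0.815 to 7.24 ± 1.45 CPM (SD, n = 4 per group), by 1.40 on the log2 scale (SE 0.222, adjusted p = 0.000682). Without hyperoxia 3 that value was 1.53 (adjusted p = 0.000309).

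Tgfb1, the isoform most widely expressed by vascular and immune cells, lies at chr7:25687002-25705077 on the plus strand. Its values were 209, 213, 215 and 201 CPM in normoxia and 211, 226, 217 and 236 CPM in hyperoxia. The groups overlapped, and hyperoxia 1 lay within the normoxia range. The log2 fold change of 0.088 did not pass the test (SE 0.0480, adjusted p = 0.183), and its 95% confidence interval ran from -0.019 to 0.19.

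Per length, the summed level of the 3 ligands was 45.0 ± 1.35 FPKM (fragments by gene length in kilobases and by library size) among normoxia libraries and 54.6 ± 3.19 FPKM among hyperoxia libraries (SD, n = 4 per group), without overlap. Tgfb1 made up 91.6 ± 0.230% of that sum in normoxia and 80.4 ± 0.859% in hyperoxia. The Tgfb2 share was 6.60 ± 0.522% in normoxia and 15.7 ± 0.776% in hyperoxia. The Tgfb3 share was 1.79 ± 0.535% and 3.89 ± 0.712%. Each of these shares was free of overlap between the groups, and Tgfb1 remained the most abundant ligand transcript in all 8 libraries. The shares were described without a test.

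**Figure D2:**
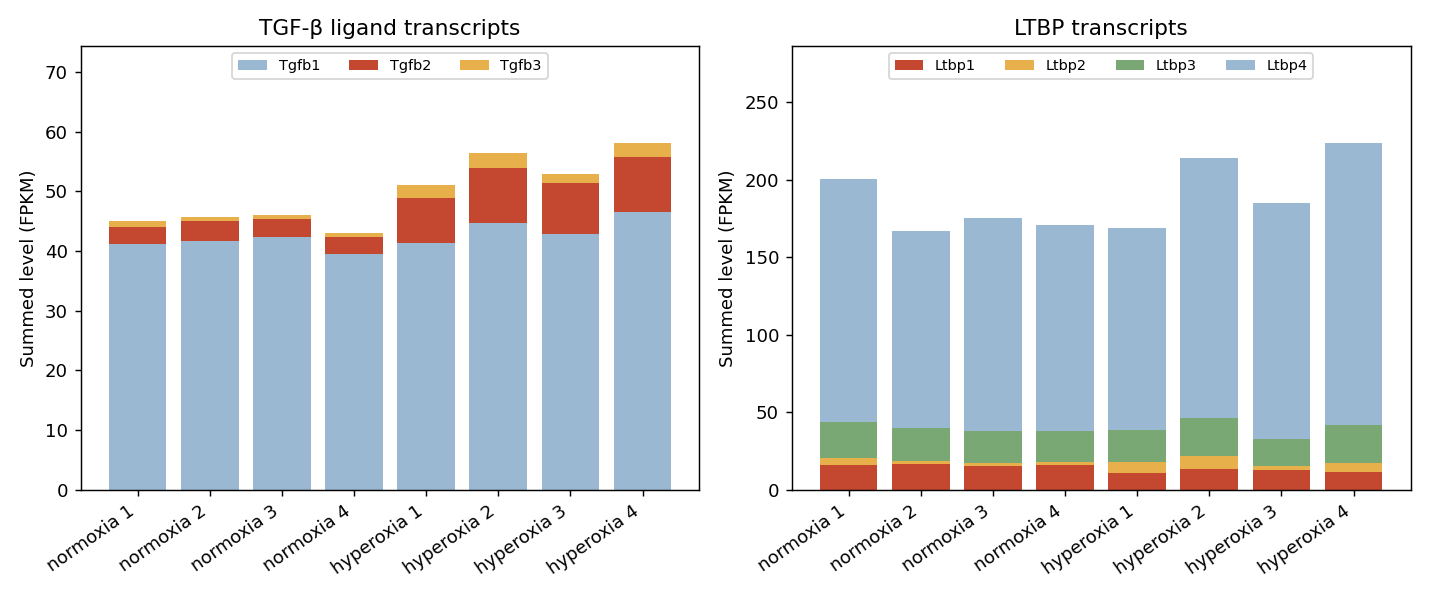
Summed level in FPKM (y axis, from 0) of the ligand transcripts (left) and LTBP transcripts (right) in each library, stacked by gene. The ligand sums lie between 43.0 and 46.1 FPKM in normoxia and between 51.0 and 58.1 FPKM in hyperoxia, and the LTBP sums overlap between the groups.

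Tgfbr2 encodes the type II receptor, the constitutively active kinase that binds the ligand first, and lies at chr9:116084293-116175360 on the minus strand. It was present at 299.5, 294, 323 and 298 CPM in normoxia and at 375, 377, 392 and 392 CPM in hyperoxia. The groups did not overlap, and the spread within each group was small beside the gap. Tgfbr2 rose from 303.7 ± 13.4 to 384 ± 9.15 CPM (SD, n = 4 per group), by 26.3% (log2 fold change 0.34, SE 0.0453, adjusted p = 0.000236). The value without hyperoxia 3 was 0.33 (adjusted p = 0.00105).

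Tgfbr1 encodes the type I receptor ALK5, which phosphorylates Smad2 and Smad3, and lies at chr4:47353222-47414931 on the plus strand. Its values were 62.5, 66.7, 57.8 and 64.6 CPM in normoxia and 56.5, 60.1, 62.5 and 62.1 CPM in hyperoxia, so the groups overlapped. The log2 fold change of -0.061 did not pass the test (adjusted p = 0.444), with a 95% confidence interval from -0.19 to 0.065. The ratio of Tgfbr1 to Tgfbr2 in FPKM averaged 0.260 ± 0.0261 for normoxia and 0.197 ± 0.00539 for hyperoxia (SD, n = 4 per group), and the groups did not overlap.

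Ltbp1, an anchor of the large latent complex in the extracellular matrix, lies at chr17:75005568-75392512 on the plus strand. It was present at 166, 176, 163 and 172 CPM in normoxia and at 117, 139, 137 and 118 CPM in hyperoxia. All hyperoxia libraries were below all normoxia libraries. Ltbp1 fell from 169 ± 5.77 to 128 ± 11.7 CPM (SD, n = 4 per group), which is -0.41 on the log2 scale (SE 0.0638) or -24.5% (adjusted p = 0.000651). Without hyperoxia 3 the log2 fold change was -0.44 (adjusted p = 0.000680). Counts are per gene, so the long and short forms from the 2 RefSeq starts cannot be told apart.

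Ltbp2 encodes the LTBP that binds fibrillin but not the latent ligand, and lies at chr12:84783212-84876532 on the minus strand. Its values were 36.9, 18.04, 14.2 and 15.2 CPM in normoxia and 54.5, 69.3, 20.7 and 51.9 CPM in hyperoxia. The groups overlapped, since hyperoxia 3 was below normoxia 1. Ltbp2 rose from 21.1 ± 10.7 to 49.1 ± 20.4 CPM (SD, n = 4 per group), a 2.34-fold difference with a wide 95% confidence interval of 1.33 to 4.12 (log2 fold change 1.23, SE 0.370, adjusted p = 0.0244). The log2 fold change was 1.48 without hyperoxia 3 (adjusted p = 0.00253) and 1.63 without normoxia 1 (adjusted p = 0.00467). Leaving out normoxia 2, 3 or 4 or hyperoxia 2 ended the call, with adjusted p of 0.0665, 0.0637, 0.0716 and 0.0751. Ltbp2 shares 9.34% of its exon bases with an antisense gene, Tgfb3 up to 7.60% and Tgfb2 2.14%, and these antisense genes were at no more than 0.0847 CPM on average.

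Ltbp3, which aids secretion and storage of latent TGF-β in bone and vessels, lies at chr19:5740904-5758532 on the plus strand. It ranged from 102 to 122 CPM in normoxia and from 91.1 to 127 CPM in hyperoxia, where hyperoxia 3 was the lowest of all libraries. The log2 fold change was 0.026 (95% confidence interval -0.19 to 0.25, adjusted p = 0.862). Its listed length of 5190 bases is shorter than the 9069 merged exon bases of GENCODE M21, which bears on its FPKM.

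Ltbp4, the LTBP needed for elastic fiber assembly in the lung, lies at chr7:27305136-27337692 on the minus strand and was the most abundant of the 10 genes. Its values were 1017, 834, 894 and 869 CPM in normoxia and 848, 1086, 987 and 1185 CPM in hyperoxia, so the groups overlapped. The log2 fold change of 0.18 did not pass the test (95% confidence interval -0.032 to 0.40, adjusted p = 0.169). Leaving out hyperoxia 1, the lowest hyperoxia library, gave 0.27 and an adjusted p of 0.0300.

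In FPKM, the 4 LTBPs summed to 179 ± 14.9 for normoxia and 198 ± 25.3 for hyperoxia (SD, n = 4 per group), with overlap. Ltbp4 made up 77.6 ± 1.03% and 79.8 ± 2.41% of that sum. The Ltbp1 share was 9.02 ± 0.886% in normoxia and 6.19 ± 0.864% in hyperoxia, with no overlap, and the Ltbp2 share was 1.40 ± 0.577% and 3.01 ± 1.22%, with overlap. These shares rest on the listed lengths, and by the merged exon lengths the Ltbp1 share was 9.34 ± 0.930% and 6.38 ± 0.884%, again with no overlap.

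Smad7 encodes the inhibitory Smad that blocks the type I receptor and recruits ubiquitin ligases to it. It was present at 280.4, 256, 237 and 225 CPM in normoxia and at 195, 215, 215 and 222 CPM in hyperoxia. The groups did not overlap, but the nearest libraries, normoxia 4 and hyperoxia 4, differed by little. Smad7 fell from 249.8 ± 24.2 to 212 ± 11.6 CPM (SD, n = 4 per group), which is -0.24 on the log2 scale (SE 0.0704, adjusted p = 0.0220). The adjusted p was 0.0516 without normoxia 1, 0.0592 without hyperoxia 1 and 0.0379 without hyperoxia 3.

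By length-scaled level, the order in normoxia was Ltbp4 (139 FPKM), Smad7 (54.8 FPKM), Tgfb1 (41.2 FPKM), Tgfbr2 (36.8 FPKM), Ltbp3 (21.4 FPKM), Ltbp1 (16.02 FPKM), Tgfbr1 (9.55 FPKM), Tgfb2 (2.97 FPKM), Ltbp2 (2.56 FPKM) and Tgfb3 (0.805 FPKM). By the listed gene lengths, the library ranges of neighbors in this order overlapped in normoxia only for Tgfb2 and Ltbp2. By the merged exon lengths of GENCODE M21, an alternative chosen after seeing the data, Ltbp3 (12.2 FPKM) was below Ltbp1 (15.7 FPKM) in normoxia, and in hyperoxia both overlapped in range (12.5 and 11.9 FPKM). In hyperoxia Ltbp4 (158 FPKM) was again first and Tgfb3 (2.13 FPKM) last. There Tgfbr2 (46.6 FPKM) and Smad7 (46.6 FPKM) overlapped in range, as did Smad7 and Tgfb1 (43.9 FPKM). Tgfb2 (8.59 FPKM) overlapped with Tgfbr1 (9.18 FPKM), which it was well below in normoxia, and with Ltbp2 (5.97 FPKM). The highest mean was 172-fold above the lowest in normoxia and 74.3-fold in hyperoxia.

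**Figure D3:**
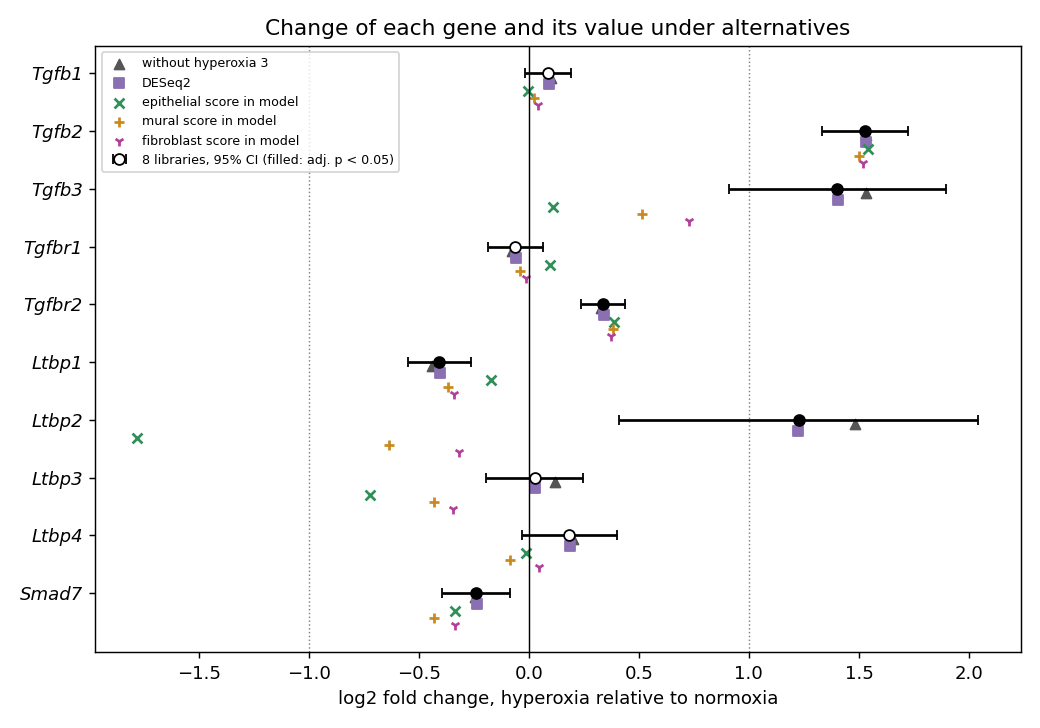
Log2 fold change of the 10 genes, hyperoxia relative to normoxia (x axis), with the 95% confidence interval from all 8 libraries as black bars and filled circles where the adjusted p was under 0.05. Other symbols give the value without hyperoxia 3, with DESeq2, and with a marker score in the model. Tgfb2 stays near 1.5 under each of these, whereas Ltbp2 lies below 0 with each marker score.

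Markers of other lung cells moved with the groups. All 11 AT2 epithelial markers tested were higher in hyperoxia, and their summed level was 297 to 444 CPM in normoxia and 907 to 2728 CPM in hyperoxia. Among them Sftpc, which encodes surfactant protein C, had 149, 98.6, 102 and 74.6 CPM in the normoxia libraries and 1423, 1408, 419 and 1234 CPM in the hyperoxia libraries. Of 13 mural and myofibroblast markers tested, 9 were higher and 0 lower, with sums of 53.1 to 94.8 CPM in normoxia and 113 to 206 CPM in hyperoxia. The pericyte gene Rgs5 was the most abundant of them, with 23.5 to 34.9 CPM in normoxia against 50.9 to 74.4 CPM in hyperoxia, and none of the 16 mural markers was at 0 in all libraries. Of 14 fibroblast markers tested, 9 were higher and 1 lower, with sums of 536 to 806 CPM and 795 to 1514 CPM. Macrophage and monocyte markers summed to 211 to 408.9 CPM and 282 to 592 CPM, and 3 of 12 were higher, 1 lower and 8 not past the threshold. Among the 3 was Lyz2, which also stands on the AT2 list and rose from a mean of 77.3 to 225 CPM. Of the further epithelial lists, all 10 tested general epithelial markers, 8 of 10 AT1 markers and 1 of 3 tested airway markers were higher and none lower. No lymphocyte marker (of 9) and no neutrophil marker (of 4) passed, 1 of 2 tested mesothelial markers was higher, and platelet and erythroid markers held 1 higher and 4 lower of 8.

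Ltbp2, Tgfb3 and Ltbp3 were each highest among normoxia libraries in normoxia 1 and lowest among hyperoxia libraries in hyperoxia 3. The summed mural, fibroblast, AT2, general epithelial and mesothelial markers shared these 2 extremes. Ltbp3 had them although its log2 fold change of 0.026 did not pass the test. Tgfb2 and Tgfbr2 did not share both extremes, since Tgfb2 was lowest in normoxia 1 and Tgfbr2 was highest in hyperoxia 3 among the hyperoxia libraries. With the mean log2 CPM of the mural markers as a covariate, the log2 fold change was 1.501 for Tgfb2 (adjusted p = 0.000970) and 0.38 for Tgfbr2 (adjusted p = 0.0336). The same model gave 0.52 for Tgfb3 (adjusted p = 0.310), -0.43 for Smad7 (adjusted p = 0.0525), -0.37 for Ltbp1 (adjusted p = 0.116) and -0.63 for Ltbp2 (adjusted p = 0.130). Smad7 was further from 0 than without the score (-0.24), and Ltbp1 was near its value without the score (-0.41). Their SEs were larger, at 0.115 against 0.0704 for Smad7 and 0.125 against 0.0638 for Ltbp1. Ltbp3, which had not passed without a covariate, was lower by this model at -0.43 (adjusted p = 0.0423). The epithelial score, which did not overlap between the groups (2.31 to 2.97 in normoxia and 4.02 to 5.41 in hyperoxia on the log2 CPM scale), left Tgfb2 past the threshold at 1.54 (adjusted p = 0.0125) as the only one of the 10 genes. Under it Tgfbr2 was at 0.39 (adjusted p = 0.228) and Smad7 at -0.33 (adjusted p = 0.549), each further from 0 than without the score. Tgfb3 was at 0.11 (adjusted p = 0.945) and Ltbp1 at -0.17 (adjusted p = 0.736), each nearer to 0 than without the score. Ltbp2 was at -1.78 (adjusted p = 0.163). With a fibroblast marker score in its place, Tgfb3 was at 0.73 (adjusted p = 0.0798). With the epithelial score 238 of all genes tested passed, compared with 1099 with the mural score and 5535 with no score. Whether RNA of these other cells took part in the changes of Tgfb3, Ltbp2 and the other genes was not tested.

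**Figure D4:**
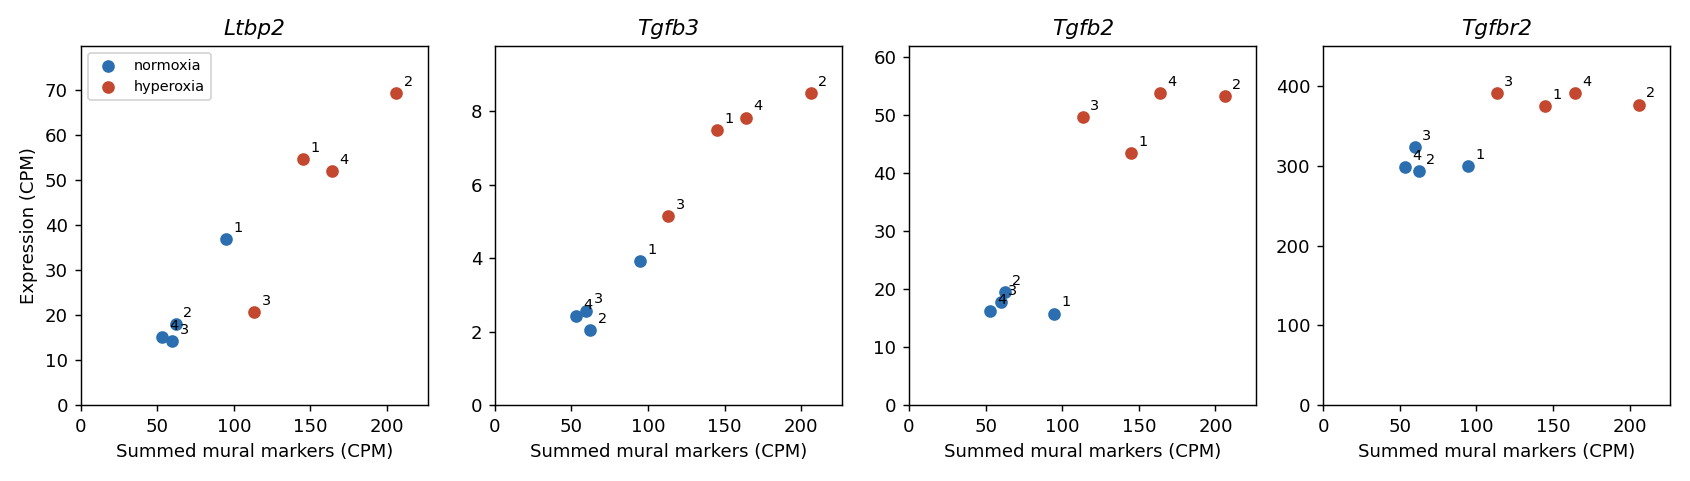
Expression of Ltbp2, Tgfb3, Tgfb2 and Tgfbr2 in CPM (y axis, from 0) against the summed level of 16 mural and myofibroblast markers in CPM (x axis), 1 point per library, normoxia in blue and hyperoxia in red, with replicate numbers. Ltbp2 and Tgfb3 are highest among normoxia libraries in normoxia 1, which has the highest mural sum there, and lowest among hyperoxia libraries in hyperoxia 3, which has the lowest, and Tgfb2 is at 15.8 CPM in normoxia 1.

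Genes with the pattern most like a member over the 8 libraries were ranked by the root mean square difference in centered log2 CPM among 9068 protein-coding candidates. For Tgfb2 they were Ephx1 (0.109), an epoxide hydrolase gene, Mgat5 (0.112), a glycosyltransferase gene, and Lmna (0.114), which encodes the nuclear lamins A and C. For Tgfb3 they were Nbl1 (0.125), a secreted BMP antagonist, the gelatinase gene Mmp2 (0.162) and the syndecan gene Sdc1 (0.163). For Ltbp2 they were the mural receptor genes Pdgfrb (0.176) and Notch3 (0.210) and the collagen gene Col1a2 (0.195), all of which stand on the mural or fibroblast marker lists.

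The other genes of the pathway were described by 6 lists of 82 genes, of which 77 were tested. Among these 77 genes, 44 were higher in hyperoxia, 11 lower and 22 not past the threshold, so that 71.4% passed against 35.6% of all genes. The lists were chosen with earlier results of these data known, so these shares are a description and not a test. The median log2 fold change was 0.33. Of the 82 genes, 10 also stand on a marker list, and 8 of the 9 of these that were tested were higher. Of the 68 tested genes on no marker list, 36 were higher and 11 lower. This split does not part ECs from other cells. The 10 include the pan-endothelial marker Eng, and the 68 include Itgb6, an integrin subunit gene of epithelial cells. Against 55 called genes over all lists, leaving out 1 library gave between 48 (without hyperoxia 2) and 57 (without hyperoxia 3), and leaving out both normoxia 1 and hyperoxia 3, a setting chosen after seeing the data, gave 56. With the epithelial, mural or fibroblast score as a covariate the count was 3, 18 or 27. Of all genes tested, 1.53%, 7.06% or 12.1% passed with these scores.

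**Figure D5:**
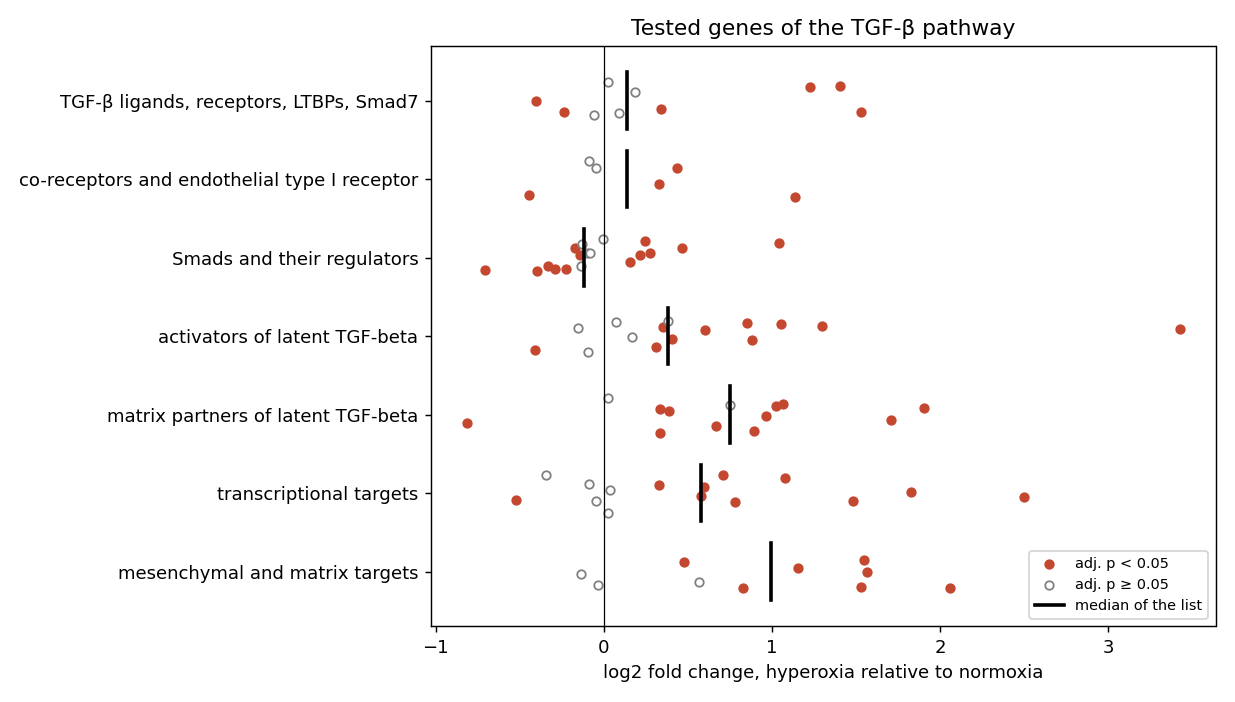
Log2 fold change (x axis, hyperoxia relative to normoxia) of the 10 genes and of the tested genes of the 6 pathway lists, 1 point per gene, red where the adjusted p was under 0.05 and open otherwise, with the list median as a black line. The medians run from -0.12 for the Smads and their regulators to 0.99 for the mesenchymal and matrix targets.

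Of 6 co-receptors and the endothelial type I receptor, 3 were higher and 1 lower, with a median of 0.14. Eng, the endothelial co-receptor endoglin, rose from 1644 ± 17.1 to 2222 ± 40.9 CPM (SD, n = 4 per group; log2 fold change 0.43, adjusted p = 1.52e-05). Cd109, a co-receptor that promotes receptor turnover, rose by 1.14 (adjusted p = 5.76e-05), and Vasn, a ligand trap, fell by 0.44 (adjusted p = 0.00583). Acvrl1 had 1679 ± 50.1 CPM in the normoxia group, 1624 ± 34.0 CPM in the hyperoxia group, and did not pass (adjusted p = 0.404).

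The 18 Smads and their regulators moved in both directions, with 6 higher, 7 lower and a median of -0.12. Smad3, which carries the signal to the nucleus, rose from 10.1 ± 1.60 to 20.9 ± 1.65 CPM (SD, n = 4 per group; log2 fold change 1.04, adjusted p = 7.59e-05). Smad6, the other inhibitory Smad, rose by 0.22 (adjusted p = 0.0210), in the opposite direction to Smad7, and the corepressor Ski rose by 0.16 (adjusted p = 0.0301). The corepressor Tgif2 fell by 0.71 (adjusted p = 0.00562).

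Of 15 tested activators of latent TGF-β, 9 were higher and 1 lower, with a median of 0.38. Itgb1, the integrin β1 gene, rose from 1616 ± 57.2 to 1999.5 ± 69.2 CPM (SD, n = 4 per group; log2 fold change 0.31, adjusted p = 0.000471). Itgb6, the integrin subunit gene of epithelial cells, had the largest rise of this list, 3.43 (adjusted p = 0.000217), from 0.595 ± 0.263 to 6.40 ± 2.95 CPM, and hyperoxia 3 was its lowest hyperoxia library at 2.29 CPM. Lrrc32, which encodes the cell-surface tether GARP, fell by 0.41 (adjusted p = 0.0148). Tgm2, a transglutaminase gene, was at 248 ± 8.74 and 278 ± 32.1 CPM and did not pass (adjusted p = 0.117).

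Among 13 tested matrix partners of the latent complex, 10 were higher and 1 lower, with a median of 0.75. Eln, the tropoelastin gene and the most abundant, had 4857 ± 914 CPM in the normoxia group and 4939 ± 786 CPM in the hyperoxia group (adjusted p = 0.910). Mfap2, which encodes a microfibril protein that binds active TGF-β, fell from 216 ± 14.8 to 123 ± 3.08 CPM (SD, n = 4 per group; log2 fold change -0.82, adjusted p = 1.84e-06). Aspn, a small proteoglycan gene that also stands on the mural list, rose by 1.90 (adjusted p = 0.00252).

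Of 15 tested transcriptional targets, 9 were higher and 1 lower, with a median of 0.58. Pdgfb, the ligand through which ECs recruit pericytes, rose by 0.33 (adjusted p = 0.00262), Zeb2 fell by 0.53 (adjusted p = 0.000143), and Junb was at 1112 ± 71.8 and 1044 ± 37.0 CPM (adjusted p = 0.222).

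Of 10 tested mesenchymal and matrix targets, 7 were higher and 0 lower, with a median of 0.99. Sparc, a matricellular protein gene, rose from 2597 ± 142 to 3621 ± 125 CPM (SD, n = 4 per group; log2 fold change 0.48, adjusted p = 5.24e-05). Acta2, the smooth muscle actin gene that also stands on the mural list, had the largest rise, 2.06 (adjusted p = 0.000276), from a low level of 2.57 ± 1.08 CPM. Col3a1, a fibrillar collagen gene that also stands on the fibroblast list, rose by 0.83 (adjusted p = 0.0247), with groups that overlapped.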

How the data were processed

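RNA-seq counts of lung ECs were available for 4 normoxia and 4 hyperoxia libraries, grouped by their titles. Per the labels and files, the authors deposited whole-number counts per gene and FPKM for the same genes. The submitters' processing notes name HISAT2 2.0.5, featureCounts 1.5.0-p3 and build mm10; annotation release, strand use and treatment of reads matching several genes are not given in the sources used here. The labels name an RNeasy kit and the paper's methods TRIzol. The deposited FPKM matched values recomputed from the counts and listed gene lengths, up to 1 scaling constant in each library (0.974 to 1.01), so FPKM served for levels between genes and as an alternative.

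Differences were tested in edgeR 4.0.16 (R 4.3.3) by its quasi-likelihood method, with TMM normalization, filterByExpr and the group as the only term, over 15564 genes, with Benjamini-Hochberg adjustment. Thresholds were an adjusted p of 0.05 and, where stated, an absolute log2 fold change of 1. CPM are counts scaled to TMM library sizes, computed here from the deposited counts; log2 CPM used a prior count of 2. The study used DESeq2, which was run (1.42.0) as an alternative beside limma 3.58.1 (voom, and log2 FPKM with a pseudocount of 0.1 or 1), other normalizations and filters, marker scores as covariates, a replicate block and leaving out each library. The test was run on simulated counts first. Gene positions were as in the files and GENCODE M21.

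The members and lists were chosen with earlier results of these data known. Named were all 10 members; from each pathway list the 2 tested genes of highest mean FPKM and the largest rise and fall past the threshold; for each member past both thresholds the 3 protein-coding genes of at least 10 mean CPM with the most similar pattern; and the most abundant marker of a list that moved with a result. Xist is named beyond this rule, and 1 gene that the rule names is not reported here. RefSeq upstream windows were read for 8 of the 10 genes, of which 3 are shown, and bases inside exons of protein-coding genes were left out.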

Additional observations from a re-analysis of the deposited data

Results flagged for a closer look

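In 40 groups of 4 libraries (each of the 10 genes in CPM and each share, sum or ratio), a library was looked at again where its gap to the nearest other library, as a share of the range of its group, was above Dixon's 95% critical value for 4 values. Chance alone gives such a gap in about 1 in 20 groups, or 2 of 40, and 3 were found. The Ltbp2 level of normoxia 1 was 36.9 CPM, and the rest of its group lay between 14.2 and 18.04 CPM. The share of Ltbp4 in the summed LTBP FPKM was 76.1% in normoxia 2, and the rest lay at 78.0 to 78.2%. The ratio of Tgfbr1 to Tgfbr2 in FPKM was 0.189 in hyperoxia 1, against 0.199 to 0.200 in the others.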

How the results depend on the processing

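Tgfb2 kept its direction and its call under all 22 alternatives (log2 fold change 1.27 to 1.59). Of the 10 genes, 6 passed the adjusted p and 3 both thresholds, and the count of 6 held in 11 of 22 alternatives, that of 3 in 13 and both in 10. A count can hold while its genes change. Without hyperoxia 1 the count was 6, but Smad7 lost its call (adjusted p = 0.0592) and Ltbp4 gained one (adjusted p = 0.0300). The counts were 1 and 1 where the epithelial score was a covariate, 3 and 1 for the mural score, 3 and 1 for the fibroblast score, and 6 and 1 on log2(FPKM + 1). The 3 genes past the adjusted p with the mural or the fibroblast score were Tgfb2, Tgfbr2 and Ltbp3. Among all genes tested, 1.53%, 7.06% and 12.1% passed the adjusted p with the epithelial, mural and fibroblast score, against 35.6% with no score. Leaving out 1 library gave 5 to 6 and 2 to 3. With these scores 3, 18 and 27 pathway genes passed, against 55 (48 to 57 without 1 library). With the epithelial score the log2 fold change was -0.0027 for Tgfb1, 0.095 for Tgfbr1, -1.78 for Ltbp2, -0.72 for Ltbp3 and -0.014 for Ltbp4. With the mural score it was -0.63 for Ltbp2, -0.43 for Ltbp3 and -0.088 for Ltbp4, and with the fibroblast score -0.32 for Ltbp2 and -0.35 for Ltbp3 (adjusted p = 0.0268). Ltbp3 ran from -0.031 to 0.12 over the fits without 1 library. The titles give a replicate number and no pairing. Deviations of same-numbered libraries correlated at -0.14 to 0.119, which cannot decide whether these libraries were paired. With a replicate block 5 and 3 genes passed, Smad7 losing its call (adjusted p = 0.0616), and 51 pathway genes passed. On summed CPM instead of FPKM the Tgfb1 share was 91.3% in normoxia, the Tgfb2 share 7.55% in normoxia and 17.9% in hyperoxia, and the Ltbp4 share 74.9% in normoxia. By the merged exon lengths, also chosen after seeing the data, the Ltbp4 share was 81.9% in normoxia and 83.8% in hyperoxia. On log2(FPKM + 0.1) with no filter 4 and 2 genes passed, without Smad7 and Ltbp2. Without both normoxia 1 and hyperoxia 3, chosen after seeing the data, 5 and 3 passed, with Smad7 losing its call (adjusted p = 0.0807), Ltbp2 at 1.89 (adjusted p = 1.40e-05) and Tgfb3 at 1.75. The causes were not tested. With 4 libraries a group, small differences such as those of Tgfb1 and Ltbp4 are bounded by their intervals.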
